A study of Sus scrofa with 2 samples.

Results

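The genes described are 10 reported targets of the transcription factor MITF that lie outside pigment synthesis: the survival genes BCL2, BCL2A1 and BIRC7, the cell cycle genes CDK2, CDKN1A and CDKN2A, the oxygen-response gene HIF1A, the mitochondrial coactivator PPARGC1A, the T-box repressor TBX2 and the DNA repair gene APEX1. They were found by name among the 27622 features of the deposited expression table. Of the 10 genes, 9 matched 1 feature each, 8 by their symbol and PPARGC1A by its older symbol, whereas BIRC7 matched none and is not analysed here. RNA-seq was performed on the cochlear lateral wall, including its stria vascularis (SV), of Rongchang pigs. The genotypes Mitf R/r and Mitf r/r were each represented by a single library. The r allele carries small insertions in the promoter of the melanocyte (M) isoform of MITF, and the r/r animals are the albino pigs. The comparison library is therefore not wild type, as the R/r pig carries 1 r allele too. The text of the study gives an embryonic stage for both libraries, whereas the sample labels give postnatal day 1.

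MITF is a basic helix-loop-helix leucine zipper protein that binds E-box sequences and directs the development, survival and pigment production of melanocytes. In the SV, cells of melanocyte origin, the intermediate cells, sit between marginal and basal cells and carry potassium channels needed for the endocochlear potential. Apart from pigment enzymes, MITF has been linked in melanocytes and melanoma cells to proteins that restrain apoptosis (BCL2, BCL2A1, BIRC7), to kinases and inhibitors of the G1 to S transition (CDK2, p21 from CDKN1A, p16 from CDKN2A), to HIF1A, to mitochondrial biogenesis through PPARGC1A, to the senescence-suppressing repressor TBX2 and to the redox and repair enzyme APEX1. Most of these genes are also used by many other cell types. In whole-tissue RNA alone, fewer cells of a type and less RNA per cell cannot be told apart. From electron microscopy and these RNA data, the study determined that r/r SVs hold intermediate cells in the embryo and lose them around birth.

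The values are RPKM, which scale the reads of a gene to its exon length and to the depth of its library, so levels of different genes can be compared per length. The steps between low RPKM values gave back whole reads, up to a common multiple. The totals were 15829244 reads for the R/r library and 14258672 reads for the r/r library. A read on 1 kb of exon was worth 0.0632 RPKM in the R/r library and 0.0701 RPKM in the r/r library. Each difference is given as the log2 ratio of RPKM, r/r over R/r, with an exact 95% Clopper-Pearson interval on the reads. With 1 library per genotype there is no replicate check and no test, and the intervals cover counting error only. A ratio was read where a gene was above 0 in both libraries and reached 1 RPKM in at least one, as 16331 features did, with a median log2 ratio of -0.02.

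MITF itself, the gene that the r allele affects, was represented by 3 features. Their RPKM values in the R/r and r/r libraries were 51.7 and 37.8 for the feature ENSSSCG00000011513, 11.9 and 8.36 for ENSSSCG00000011512, and 10.1 and 7.27 for ENSSSCG00000011514. The r/r value was the lower one in each. Summed over the 3 features, 656 reads stood against 424, a log2 ratio of -0.48 (interval -0.66 to -0.30). The features do not separate the M isoform from the other MITF isoforms.

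The tissue label was set beside marker genes. Markers of marginal cells and of fibrocytes were abundant in both libraries, with summed RPKM of 1638 and 1207 for 6 marginal cell genes and 7893 and 5877 for 5 genes of basal cells and fibrocytes (R/r first). COCH alone gave 6826 and 4914 RPKM of the latter sums, whereas SLC26A4 gave 0.209 and 0.116. The 14 melanocyte genes summed to 368 RPKM in the R/r library against 67.0 in the r/r library. Of the 12 compared, 8 were at least 2-fold lower, with a median log2 ratio of -4.13 and a range from -10.64 for TRPM1 to 0.04 for OCA2, and MLANA was listed at 0 in the r/r library alone. Bone markers were present as well, at 1053 and 690 RPKM over 10 genes.

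Of the 9 matched genes, 6 were above 0 in both libraries, 5 passed the minimum for a ratio, BCL2A1 stayed under it, and CDKN1A, CDKN2A and APEX1 were listed at 0 in both. None of the 5 was 2-fold apart between the genotypes, where 3.99% of all features compared were. The log2 ratio was below 0 for TBX2, CDK2, BCL2 and HIF1A, of which HIF1A turned to 0.01 after scaling the libraries by their median, and above 0 for PPARGC1A, with a median of -0.15 and a range from -0.58 to 0.10. The counting interval lay wholly below 0 for TBX2 and CDK2, that is for 2 of the 5 genes, and spanned 0 for BCL2, HIF1A and PPARGC1A. Over all features compared, 53.3% had a log2 ratio below 0, 13.9% had an interval wholly below 0 and 10.9% an interval wholly above 0.

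**Figure D1:**
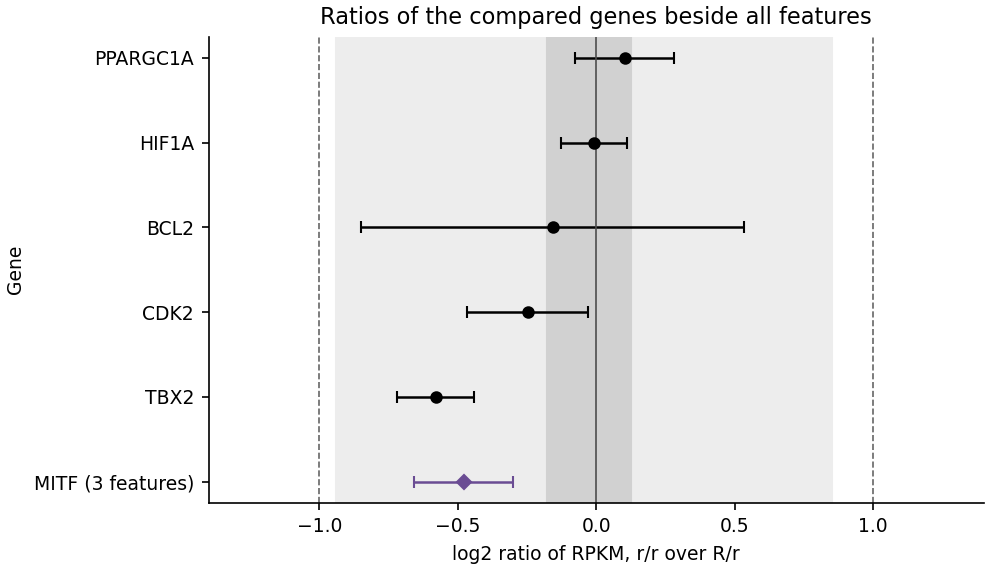
Points are the log2 ratios of RPKM, r/r over R/r, of the 5 genes compared and of MITF summed over 3 features, with exact 95% intervals of counting error as bars. The dark band runs from the lower to the upper quartile of all 16331 features (-0.18 to 0.12), the light band holds their central 95% (-0.94 to 0.85), and dashed lines mark 2-fold. The points of TBX2, MITF and CDK2 lie left of the dark band, at -0.58, -0.48 and -0.25, and the bar of CDK2 runs into the band.

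By level, HIF1A was the highest of the 6 genes in both libraries. In the R/r library, TBX2 at 20.2 RPKM (exact Poisson 95% interval 19.0 to 21.4) and CDK2 at 19.4 (17.5 to 21.4) followed and did not differ beyond their counting error. PPARGC1A came next at 12.4 RPKM (11.3 to 13.5), then BCL2 at 4.40 (3.17 to 5.95) and BCL2A1 at 0.349 (0.128 to 0.760). In the r/r library TBX2 stood at 13.5 RPKM (12.5 to 14.6), beside PPARGC1A at 13.3 (12.1 to 14.5) and under CDK2 at 16.3 (14.6 to 18.3). The order of the other genes was the same in both libraries.

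**Figure D2:**
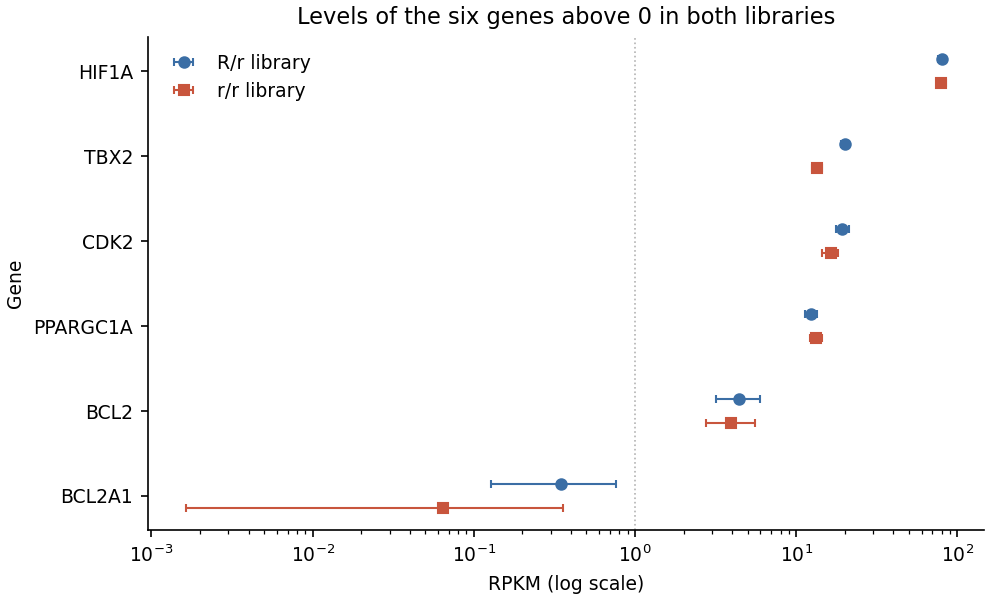
RPKM on a log axis for the 6 genes above 0 in both libraries, with the R/r library as circles, the r/r library as squares, and exact Poisson 95% intervals as bars. TBX2 sits beside CDK2 in the R/r library (20.2 and 19.4) and beside PPARGC1A in the r/r library (13.5 and 13.3), and the interval of BCL2A1 in the r/r library rests on 1 read.

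Among the survival genes, BCL2 and BCL2A1 were both low. BCL2 (ENSSSCG00000004895), which holds the pore-forming proteins BAX and BAK1 in check at the mitochondrion, had 4.40 RPKM in the R/r library (42 reads) against 3.95 in the r/r library (34 reads). Its log2 ratio was -0.15 with an interval from -0.85 to 0.53, so a difference within these bounds was not detectable at this depth. BCL2 made up 2.19% of the summed RPKM of the 6 death-restraining family genes in the R/r library (201 RPKM) against 2.13% in the r/r library (185 RPKM).

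BCL2A1 (ENSSSCG00000001778), a short-lived relative of BCL2 best known from haematopoietic cells and melanoma, had 0.349 RPKM from 6 reads in the R/r library and 0.0646 RPKM from 1 read in the r/r library. The log2 ratio of -2.43 had an interval from -7.96 to 0.61, which spans no difference. Markers of macrophages, cells in which the gene is also used, summed to 54.6 and 50.8 RPKM over 7 genes, with log2 ratios from -0.47 for CSF1R to 0.10 for AIF1. Markers of neutrophils summed to 7.03 and 5.09 RPKM over 8 genes, where CAMP was listed at 0 in both libraries and only ELANE was compared (-0.43). The part of these cells, or of melanocytes, in the BCL2A1 value was not tested.

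Other death-restraining genes were more abundant. MCL1 had 89.1 and 85.9 RPKM (R/r first) and BCL2L1, which encodes BCL-XL, 77.0 and 69.0. The 3 death-restraining genes compared beside BCL2 had log2 ratios below 0, as 53.3% of all features did. They ran from -0.19 for BCL2L2 to -0.05 for MCL1, with a median of -0.16 and each interval spanning 0. BCL2L10 was listed at 0 in both libraries.

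The genes on the death-promoting side lay on both sides of 0. Of the pore-forming genes, BAX had 52.6 and 54.9 RPKM, and the 3 log2 ratios ran from -0.16 for BAK1 to 0.18 for BOK (10.3 and 11.7 RPKM). The 4 BH3-only genes compared, whose products trigger or relieve that step, were all below 0, as 53.3% of all features were. Their median was -0.27, from -0.44 for BBC3 (PUMA) to -0.09 for BAD (25.1 and 23.6 RPKM), and each interval spanned 0. BID had 21.1 and 17.6 RPKM.

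BIRC7 is the IAP protein (inhibitor of apoptosis) that melanoma cells use, and it could be set beside its relatives alone. XIAP, which blocks caspases directly, had 41.0 and 41.2 RPKM, and BIRC2 had 34.4 and 36.3. The list held IAP proteins and their antagonists, and its 4 genes compared included an antagonist. Their log2 ratios lay between 0.01 for XIAP and 0.08 for BIRC2, with a median of 0.04, and after TPM scaling 2 of the 4 lay below 0. Among 7 caspase and apoptosome genes compared, the median was 0.04. The lowest was CASP8 at -0.10 and the highest CASP9, the initiator caspase of the mitochondrial route, at 0.27 (interval 0.02 to 0.51, or -0.02 to 0.48 after TPM scaling). CYCS, which encodes cytochrome c, had 142 and 138 RPKM and CASP6 had 18.1 and 21.1.

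**Figure D3:**
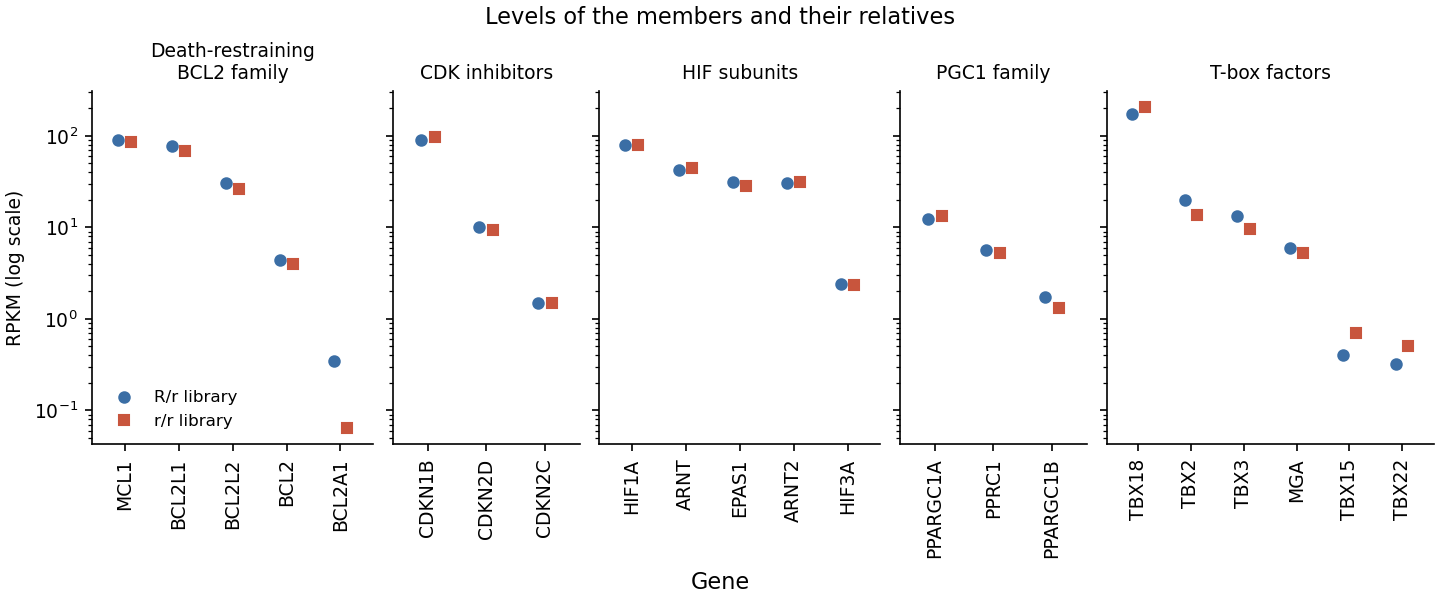
RPKM on a log axis for genes with relatives in the table, with circles for the R/r library and squares for the r/r library; genes listed at 0 in a library or matched to no feature are not drawn. BCL2 lies far under MCL1 and BCL2L1 (4.40 against 89.1 and 77.0 RPKM in the R/r library), HIF1A and PPARGC1A are the highest of their families, and TBX2 lies under TBX18.

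CDK2 (ENSSSCG00000000373) encodes the kinase that works with cyclins E and A to take cells into S phase. It had 19.4 RPKM in the R/r library (407 reads) and 16.3 RPKM in the r/r library (309 reads). The r/r level was 84.3% of the R/r level (interval 72.5% to 98.0%), a log2 ratio of -0.25 (interval -0.46 to -0.03). The upper bound was close to 0, and 18.4% of all features compared had a lower ratio. Among the 6281 features with at least as many reads, 8.02% were lower.

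The other genes of the G1 to S step lay on the same side of 0. Apart from CDK2, 7 were compared and all 7 had log2 ratios below 0, as 53.3% of all features did, with a median of -0.23 beside -0.02. Of the 7 intervals, 2 lay wholly below 0, beside 13.9% of all features. CCND2, which encodes cyclin D2, had 12.7 RPKM (92 reads) in the R/r library and 6.31 RPKM (41 reads) in the r/r library. Its log2 ratio of -1.02 (interval -1.58 to -0.47) made it the only gene of the list at least 2-fold apart, by a narrow margin, since the ratio was -0.997 after median scaling and -0.91 with a pseudocount of 1 RPKM. CCND3 and CCND1, the most abundant genes of the list, had 32.3 and 31.7 RPKM and 23.6 and 20.1 RPKM (R/r first). Their log2 ratios were -0.03, the highest of the list, and -0.23 with an interval from -0.76 to 0.29. CDK2 made up 58.2% of the summed RPKM of CDK2, CDK4 and CDK6 in the R/r library against 54.5% in the r/r library. The feature of CDK4 was listed at only 0.203 and 0.257 RPKM, from 7 and 8 reads. Whether so low a value reflects the expression of CDK4 was not tested, and the share of CDK2 depends on it.

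The markers of dividing cells lay on both sides of 0. Of 9 compared, 4 were below 0 and 5 above, with a median log2 ratio of 0.09. The range ran from -0.60 for TOP2A, the topoisomerase of dividing cells, to 0.37 for AURKB, a mitotic kinase. Intervals lay wholly below 0 for 3 and wholly above for 1, beside 13.9% and 10.9% of all features. After TPM scaling these counts were 4 and 0, beside 17.7% and 8.27%. MKI67 had 39.6 and 42.3 RPKM and PCNA, the DNA polymerase clamp, 20.2 and 22.9. The MKI67 symbol had 2 features, of which that of highest mean RPKM was taken. The level of this feature lay far over that of TOP2A (1.61 and 1.07 RPKM), and its log2 ratio of 0.09 is the list median. Whether the feature measures MKI67 was not tested. How far the share of dividing cells in each library bears on the CDK2 value was not tested.

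CDKN1A (ENSSSCG00000001565) and CDKN2A (ENSSSCG00000005134), which encode the kinase inhibitors p21 and p16, were listed at 0 RPKM in both libraries. A listed 0 cannot be read as no expression in these data. Over all features, 24.5% were at 0 in both libraries, and among 66 ribosomal protein symbols 4 had each feature at 0, RPL28, RPS15A and RPS19 among them. No fold or limit is given for either inhibitor. Of the other inhibitors, CDKN1B, which encodes p27, was the most abundant at 89.8 and 97.4 RPKM (log2 ratio 0.12), followed by CDKN2D with 9.33 RPKM in the r/r library (log2 ratio -0.12). CDKN2B, the neighbour of CDKN2A and encoding p15, was listed at 0 in the R/r library and at 0.156 RPKM in the r/r library. The 3 inhibitor genes compared had a median log2 ratio of 0.00, or -0.03 after TPM scaling.

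HIF1A (ENSSSCG00000005096) encodes the oxygen-regulated alpha subunit of hypoxia-inducible factor 1, whose protein is degraded when oxygen is ample. It had 80.1 RPKM in the R/r library (1208 reads) and 79.6 RPKM in the r/r library (1082 reads). The log2 ratio was -0.01 and its interval from -0.13 to 0.11 kept the difference within 91.5% to 108% of the R/r level as far as counting error goes. In both libraries HIF1A made up the greater part of the 3 alpha subunit genes HIF1A, EPAS1 and HIF3A, with 70.4% in the R/r library against 72.0% in the r/r library.

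Its partners and oxygen sensors had a median near the middle of all features too. Of the 7 compared beside HIF1A, 5 were below 0, or 4 after median scaling, with a median log2 ratio of -0.02. Intervals lay wholly below 0 for 2 of the 7 and wholly above for none, beside 13.9% and 10.9% of all features. After median scaling 1 lay wholly below 0, beside 12.4%, and after TPM scaling 3, beside 17.7%. EGLN2, a prolyl hydroxylase that marks HIF subunits for degradation, had 53.6 and 52.8 RPKM. Another hydroxylase, EGLN3, itself known as a HIF target, had the lowest ratio of the list at -0.50 (interval -0.86 to -0.14), with 3.22 and 2.27 RPKM, and ARNT2 the highest at 0.06.

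Of 14 target genes of HIF compared, 11 had log2 ratios below 0, beside 53.3% of all features, with a median of -0.14 beside -0.02. Their intervals lay wholly below 0 for 6 genes and wholly above for 1, beside 13.9% and 10.9% of all features. ADM, the gene of the vasodilator adrenomedullin, was the lowest with 11.4 RPKM against 7.20 in the r/r library, a log2 ratio of -0.67 (interval -0.96 to -0.38). ANKRD37 was the highest at 0.18 (interval -0.25 to 0.62). The most abundant targets, the glycolytic enzymes PGK1 and ENO1, had 572 and 573 RPKM and 327 and 349 RPKM, with log2 ratios of 0.00 and 0.10. Endothelial markers, whose cells express ADM, summed to 227 and 219 RPKM over 6 genes, from -0.73 for VWF to 0.24 for TEK, and their part in the ADM value was not tested.

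PPARGC1A (ENSSSCG00000029275) encodes PGC1-alpha, a coactivator that drives mitochondrial biogenesis and oxidative metabolism. It was the only one of the 5 genes with a higher value in the r/r library, at 13.3 RPKM (507 reads) against 12.4 RPKM in the R/r library (524 reads). The log2 ratio was 0.10 and its interval from -0.08 to 0.28 spanned 0. PPARGC1A made up 62.3% of the summed RPKM of PPARGC1A, PPARGC1B and PPRC1 in the R/r library against 67.0% in the r/r library.

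The relatives and partners of PGC1-alpha were mostly below 0. Among the 12 compared beside PPARGC1A, 9 had a log2 ratio below 0, beside 53.3% of all features, and the median was -0.18. The most abundant was ESRRB, an oestrogen-related receptor that is also a marginal cell gene, at 69.6 and 56.1 RPKM (log2 ratio -0.31, interval -0.41 to -0.21). The other 5 marginal cell genes compared ran from -0.81 for ATP1B2 to 0.10 for SLC12A2, and their part in the ESRRB value was not tested. TFAM, which packages and transcribes mitochondrial DNA, had 47.3 and 43.7 RPKM. PPARA, a fatty acid receptor, had the lowest ratio at -0.72, on 31 reads against 17 and with an interval from -1.66 to 0.18. SIRT1, a deacetylase that acts on PGC1-alpha, had the highest at 0.16 (interval -0.04 to 0.35).

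TBX2 (ENSSSCG00000027060) encodes a T-box repressor expressed in melanoblasts, the otic vesicle and bone, among other tissues. It had the greatest difference of the 5 genes compared. The R/r library held 20.2 RPKM from 1116 reads and the r/r library 13.5 RPKM from 673 reads. The r/r level was 66.9% of the R/r level (interval 60.7% to 73.7%), a log2 ratio of -0.58 (interval -0.72 to -0.44). Of all features compared, 6.39% had a lower ratio, and of the 3181 features with at least as many reads 1.32% did. Its interval did not overlap those of HIF1A and PPARGC1A, whereas the other 13 of the 15 pairs among the 6 genes with reads overlapped. The pairs with BCL2A1 were bound to overlap, since its wide interval holds those of the other genes. The share of such pairs over all features was not counted.

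Markers of several cell types were lower in the r/r library as well. Of the 12 melanocyte genes compared, 10 had log2 ratios below 0, beside 53.3% of all features, while OCA2 and KIT were at 0.04 and 0.02. Of 10 bone genes, 9 were below 0 with a median of -0.70, from -3.14 for MEPE to 0.27 for SPP1. Of 6 marginal cell genes, 5 were below 0 with a median of -0.36. No marker of these 3 lists was at 0 in both libraries. Lower values were not particular to these 3 lists. All 4 cartilage genes and all 4 red cell genes compared were below 0, with medians of -0.25 and -0.26. Of 4 basal cell and fibrocyte genes, 3 were below 0. The 2 T and B cell genes compared had a median of 0.05. The part of each cell type in the TBX2 value was not tested.

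**Figure D4:**
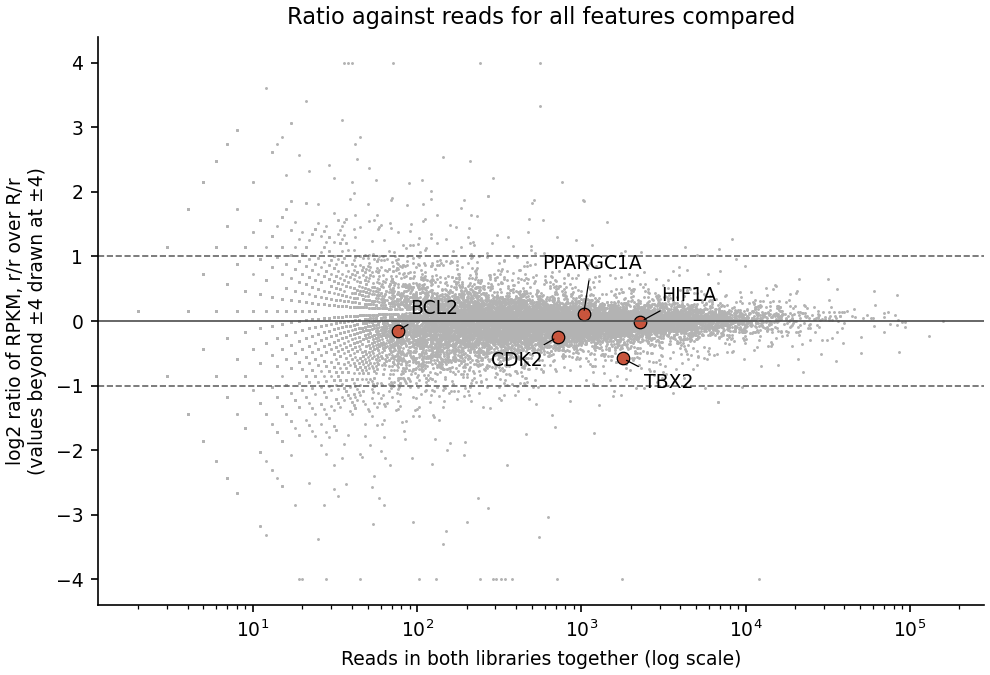
Each grey point is 1 of the features compared for which reads were found, by its reads in both libraries together (log axis) and its log2 ratio of RPKM, r/r over R/r, with dashed lines at 2-fold and values beyond 4 on the log2 scale drawn at the edge. The spread narrows as reads increase, and TBX2 (1789 reads) lies near the lower edge of the points at its depth, while HIF1A (2290 reads) lies at the centre.

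Other T-box genes did not share one direction. TBX3, the closest relative of TBX2, had 13.5 and 9.48 RPKM (41 and 26 reads), a log2 ratio of -0.51 with an interval from -1.27 to 0.24. MGA was at -0.18. TBX18, a gene of the otic fibrocytes and the most abundant T-box gene here, had 172 and 205 RPKM and the highest ratio, 0.25 (interval 0.22 to 0.29). TBX2 therefore made up 9.48% of the summed RPKM of 12 T-box genes in the R/r library (213 RPKM) against 5.74% in the r/r library (235 RPKM). TBX4, TBX5 and TBX20 were listed at 0 in both libraries.

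APEX1 (ENSSSCG00000002137), the abasic site endonuclease that also reduces transcription factors such as AP-1, was listed at 0 RPKM in both libraries. As with the kinase inhibitors, no statement on its expression follows from a 0 in this table. The enzymes that work before and after it in base excision repair were expressed. PARP1, which senses strand breaks, had 36.7 and 35.8 RPKM. Of 17 repair genes compared, 12 had log2 ratios below 0, beside 53.3% of all features, with a median of -0.10. MUTYH, a glycosylase that removes adenine opposite oxidised guanine, was the lowest at -0.36 (interval -0.67 to -0.05). The glycosylase gene NEIL2 was the only one at least 2-fold apart, with 3.11 RPKM (73 reads) in the R/r library and 7.04 RPKM (149 reads) in the r/r library. Its log2 ratio was 1.18 (interval 0.77 to 1.60), or 0.97 with a pseudocount of 1 RPKM.

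Among 7 genes of the redox partners of APEX1, the median log2 ratio was 0.16. Intervals lay wholly above 0 for 3 and wholly below for none, beside 10.9% and 13.9% of all features. After TPM scaling these counts were 2 and 1, beside 8.27% and 17.7%. JUN, a subunit of AP-1, had 22.6 RPKM in the R/r library and 41.2 RPKM in the r/r library, a log2 ratio of 0.87 (interval 0.69 to 1.05). TXNRD1, thioredoxin reductase, was the lowest at -0.07. TXN, thioredoxin itself, had 442 and 492 RPKM and RELA, an NF-kB subunit, had 49.4 and 48.7.

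Across all 16 pathway lists, 175 genes were sought, 151 were matched and 124 were compared. Of these, CCND2 passed 2-fold toward lower and NEIL2 toward higher values in the r/r library, CCND2 not after median scaling and neither with a pseudocount of 1 RPKM. A further 7 matched genes were listed at 0 in both libraries. Intervals lay wholly below 0 for 22 of the 124 genes and wholly above 0 for 13, where 13.9% and 10.9% of all features did. After TPM scaling these counts were 30 and 7, beside 17.7% and 8.27% of all features.

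**Figure D5:**
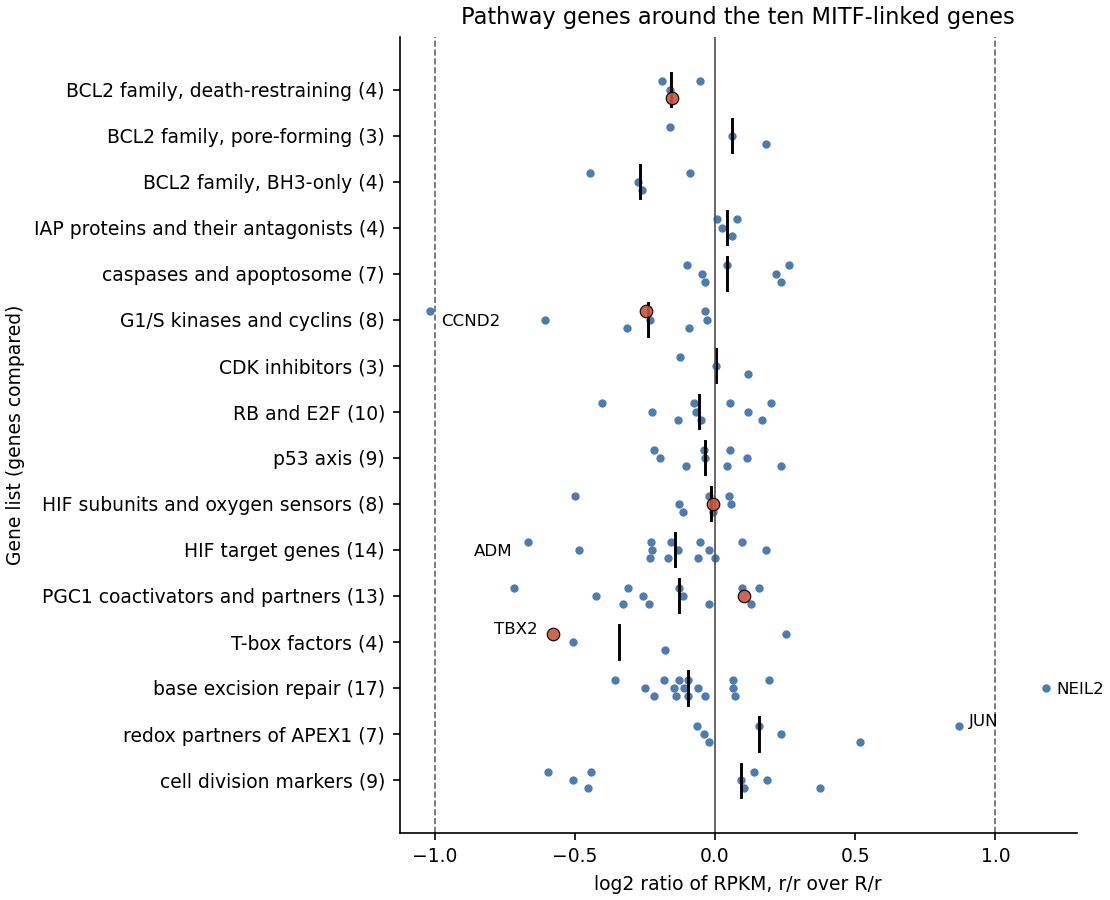
Each point is 1 compared gene of a pathway list (the number compared in brackets), by its log2 ratio of RPKM, r/r over R/r; larger outlined points are the 5 MITF-linked genes, black ticks are list medians and dashed lines mark 2-fold. CCND2 at -1.02 and NEIL2 at 1.18 are the only points beyond 2-fold as deposited (CCND2 is at -0.997 after median scaling, and with a pseudocount of 1 RPKM neither passes), and all 8 points of the G1/S list, CDK2 among them, lie left of 0.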

How the data were processed

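Tissue of the cochlear lateral wall with the SV gave 1 R/r and 1 r/r library, sequenced as paired reads. After quality filtering, the authors used TopHat (2.0.7) for alignment to Sscrofa10.2 and deposited RPKM values per feature, already scaled to exon length and library depth. The counting program and the annotation are not given in the sources used here. A further 2 columns without headings hold the authors' difference and ratio of the values for 22 features and were not used.

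The 10 genes and the gene lists were chosen with earlier results of these data known. Names came from the deposited symbols (16376 features), the deposited descriptions (329) and an Ensembl name table (1615), while 9302 features stayed without a name. PPARGC1A was matched through an older symbol in RefSeq. For a symbol with several features, that of highest mean RPKM was taken. All 10 genes are named. From each pathway list the 2 genes of highest mean RPKM, the lowest and the highest log2 ratio and every gene at least 2-fold apart are named, and from a cell type list the lowest and the highest ratio beside a result. CDKN2B, CDK4, MLANA, KIT, SOX10, SLC26A4, TBX3, MGA, ribosomal protein genes, genes of a family sum and list genes at 0 were named outside this rule, after their values were seen.

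Log2 ratios carry no pseudocount. Whole reads were worked out from the RPKM values by choosing library totals that make feature lengths whole. This held for 96.8% of 19347 features above 0 in both libraries, within 0.002 bases. The reads found are the smallest that do so, and the true reads may be a common multiple of them, which would make the true intervals narrower. Reads came in pairs, and whether both mates of a pair were counted is not known. If they were, the intervals given are too narrow. The recovery of reads was tested on simulated Poisson reads. The exact reads came back for 81.9% of simulated features above 0 in both libraries, and up to a common factor for 99.96%. The true ratio lay within 96.5% of the simulated intervals. Exact intervals give such coverage by design for independent Poisson reads, so coverage in the real libraries was not tested. PCR duplicates are not independent molecules, so intervals cover counting error only. No sample-level test is possible with 1 library per genotype. The alternatives were pseudocounts of 0.1 and 1 RPKM, no minimum and a minimum of 5 RPKM, TPM, median and upper quartile scaling, and thresholds of 1.5-fold and 4-fold. Intervals wholly beyond 2-fold were added after seeing the data. No sequences or coordinates are given. A result for 1 gene that the rule names is not reported here. Computation was in Python 3.11.15 with scipy 1.17.1, numpy 2.4.6 and pandas 2.3.3, and plots were drawn with matplotlib 3.10.9.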

Additional observations from a re-analysis of the deposited data

How the results depend on the processing

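The log2 ratios of the genes above 0 stayed within their counting intervals in 40 of 40 values under the alternatives. That was largely set in advance. The minimum RPKM does not change the ratio of a gene, and each scaling moves all ratios alike (by 0.018, 0.009 or -0.036). TBX2 lay between -0.61 and -0.55 and CDK2 between -0.28 and -0.23, and only HIF1A crossed 0, between -0.04 and 0.01. BCL2A1 ranged from -2.47 to -0.34, the latter with a pseudocount of 1. Without a minimum RPKM, 1 of the MITF-linked genes was at least 2-fold apart, BCL2A1 on 6 reads and 1 read. The number of all features at least 2-fold apart was 651. It became 317 with a pseudocount of 1, 1483 without a minimum, 178 with a minimum of 5, 1771 at 1.5-fold, 130 at 4-fold and 103 where the interval lay wholly beyond 2-fold, all by construction. Of 112 list medians under the alternatives, 109 stayed close to the value reported. The T-box median became -0.015 without a minimum and the caspase median 0.22 with a minimum of 5, as other genes entered or left, and the HIF target median became -0.18 after scaling to TPM, which moved every ratio by -0.04. CCND2 fell under 2-fold with median scaling (-0.997) and, as did NEIL2 (0.97), with a pseudocount of 1 (-0.91). Summing features that share a symbol was not run, since each matched MITF-linked gene has 1 feature. No paired analysis was possible because each genotype has 1 library. Depth limits most what can be seen for BCL2 and BCL2A1, the genes with the fewest reads.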

Other observations

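Genes that act upstream and downstream of the kinase inhibitors were measured even where the inhibitors were listed at 0. Of 9 p53 axis genes compared, 5 had log2 ratios below 0, beside 53.3% of all features, and 4 above, with a median of -0.04. CCNG1, a p53 target, was the most abundant and the highest, with 75.1 RPKM in the R/r library and 88.4 RPKM in the r/r library (log2 ratio 0.24, interval 0.16 to 0.31). PHLDA3, another p53 target, had 69.2 and 71.3 RPKM. The lowest was MDM4, a p53 inhibitor, at -0.22 (interval -0.46 to 0.02).

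Of 10 genes of the RB and E2F families compared, 6 were below 0, beside 53.3% of all features. The other 4 were above, and the median log2 ratio was -0.06. RBL2, the RB-family pocket protein p130 of resting cells, had 54.4 RPKM in the R/r library and 62.5 RPKM in the r/r library (log2 ratio 0.20, interval 0.09 to 0.31), and was both the most abundant and the highest of the list. TFDP1, the dimer partner of E2F proteins, had 26.1 and 25.2 RPKM. E2F1, the activator of S phase genes, was the lowest at -0.40, on 47 reads against 32 and with an interval from -1.10 to 0.27.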
